A study of Drosophila melanogaster with 15 samples.

Results

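RNA levels in Drosophila melanogaster embryos that had finished forming their first cell layer were compared with those in embryos still forming it. The later side was made of the 3 arrays titled T3 and the 3 titled T4, and the earlier side of the 3 arrays titled T1 and the 3 titled T2, 12 of the 15 arrays of the series. All 13966 probe sets other than the Affymetrix controls were compared, with the 4 stages weighted equally. T3 embryos are labelled as beginning germ band elongation and T4 embryos as ending it, while the study's design text speaks of gastrulation for both. T1 and T2 embryos were in the slow and in the fast phase of cellularisation. Genotypes are given as yellow white and Oregon R at all stages, as embryos for T3, T4 and T2 and as parents for T1, and no transgene, drug or other treatment is named. Whole embryos were staged by eye, so that an array averages over all of their cells, and whether both genotypes were mixed in a sample is not stated. The 3 remaining arrays, T0, came from eggs before pole cells form and only added to the estimate of the spread. The labels do not say whether replicates were separate collections, so p-values measure only how far these arrays differ among themselves, which may be technical.

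The early fly embryo divides its nuclei without dividing its cytoplasm. In cellularisation, membrane grows down between the nuclei of the blastoderm, slowly at first and then fast, until each nucleus lies in a cell of its own. Over the same period RNAs loaded by the mother are destroyed and the embryo's own genes are switched on, among them the genes that build the furrow and the gap and pair-rule genes that divide the body axis. In gastrulation and germ band elongation the mesoderm and the gut primordia move inside, the trunk lengthens, segments are fixed by the segment polarity genes, cells divide again in local patterns and the first neuroblasts leave the ectoderm.

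Summed stage markers differed between the 2 sides in the direction of the labels. The summed signal of 7 markers of the cellularising blastoderm ran between 3439 and 5032 over the 6 later arrays, against 8389 to 30829 over the 6 earlier ones. Of the 7, 6 were called lower, against 4.3% of all probe sets. Single markers did not all follow: at T2, a cellularisation stage, nullo and bnk had means of 12.6 and 10.8, under the negative-control level given below. The summed signal of 6 measured markers of the elongating germ band was 723 to 1194 on the later arrays, against 24.4 to 435 on the earlier ones. Of the 6, 5 were called higher, against 6.92% of all probe sets. These 5, en, gsb, hh, Antp and wor, are counted again in lists below, so the counts are not separate results. Of 16 measured eggshell and yolk genes, which mark unfertilised eggs or ovary, limma called none, and 1 had an unadjusted p under 0.05. A marker set of 11 such genes had summed signals of 311 to 460 on the later arrays against 264 to 404 on the earlier ones, and Cp15, Cp19 and Yp1 were at or below the negative-control level on all 12 arrays. Summed markers of older embryos were 109 to 238 on the later arrays and 103 to 194 on the earlier ones. Between 39.0% and 45.2% of the signals of a later array, and between 42.1% and 49.7% of those of an earlier one, lay at or below 21.96, the 95th percentile of 23 negative-control probe sets. The ratio of the 3′ to the 5′ actin control probe set, a sign of RNA integrity and labelling, was 1.75 to 3.36 on the later arrays, highest on replicate 2 of T4, and 1.54 to 2.16 on the earlier ones, and that of the GAPDH control was 0.734 to 5.51 and 0.226 to 8.35. The part of these ratios in the results was not tested.

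In the comparison of the later with the earlier side, 966 probe sets were called higher (6.92% of those tested) and 601 lower (4.3%), which stand for 793 and 515 genes. A call is a limma adjusted p under 0.05 together with a difference of at least 1 on the scale of log2(signal + 7.3), that is, at least a doubling or halving of the signal with this constant added. Calls are relative to the average signal of each array, which the deposited values hold constant. When each array was instead centred on its median log2 value, the median difference over all probe sets moved to -0.12, against 0.08 as deposited, and the calls split into 635 higher and 873 lower. No probe set changed from one direction to the other under that or any other scaling. As these are whole embryos, fewer cells of a type and less RNA per cell cannot be told apart. Large differences were more often falls than rises: 25 probe sets fell and 12 rose by 3 or more on the log2 scale.

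The size of the comparison depended on which of the 2 cellularisation stages the later stages were set against. T3 against T1 gave 1291 probe sets higher (9.24%) and 893 lower (6.39%), and T4 against T1 gave 1753 (12.6%) and 1058 (7.58%). T3 against T2, the neighbouring stages on either side of the end of cellularisation, gave 93 higher (0.666%) and 108 lower (0.773%). These counts are not firm, since leaving out replicate 2 of T3 gave 47 higher, leaving out replicate 1 of T3 gave 56 higher and 71 lower, and centring on hybridisation controls gave 17 higher and 65 lower. T4 against T2 gave 666 (4.77%) and 449 (3.21%). Inside the earlier side, T2 against T1 gave 753 higher (5.39%) and 594 lower (4.25%), far more than T3 against T2, while T4 against T3 inside the later side gave 72 (0.516%) and 78 (0.558%). The same order appeared in whole profiles: Pearson correlations of log2 signals were 0.916 to 0.942 between T3 and T2 arrays and 0.891 to 0.914 between T2 and T1 arrays, as a description over pairs that share arrays. These comparisons share their arrays with each other and with the pooled one and are given side by side.

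**Figure D1:**
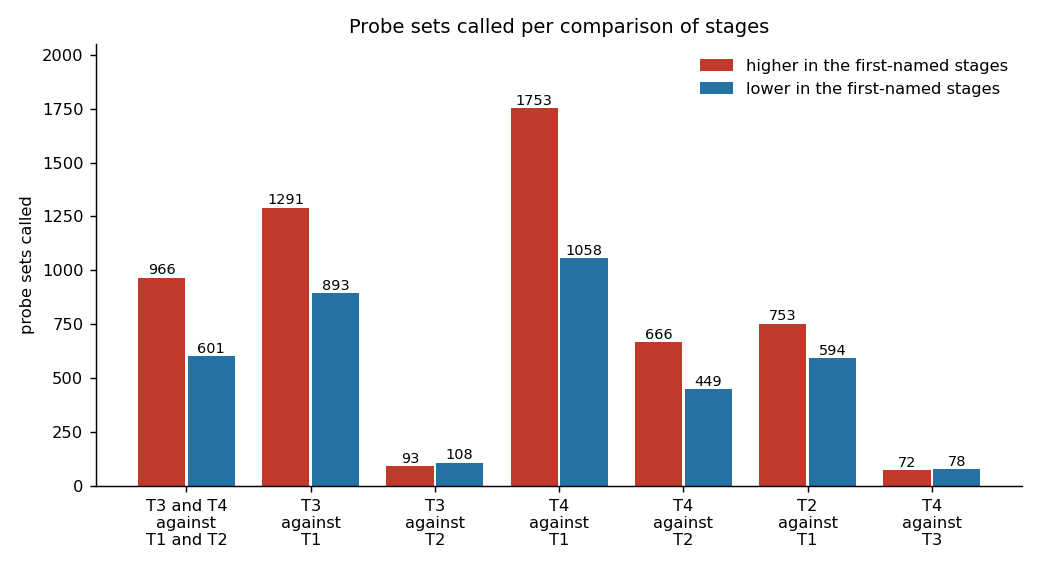
Number of probe sets called higher (red) and lower (blue) in the first-named stages, for the pooled comparison and for each pair of stages, from 1 limma fit over 13966 probe sets. The bars for T3 against T2 reach 93 and 108 (47 and 71 at the lowest when 1 array is left out), against 753 and 594 for T2 against T1 and 966 and 601 for the pooled comparison.

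Most called probe sets had their extreme means at T1 and T4. The change inside cellularisation was itself called in the same direction, T2 against T1, for 441 (45.7%) of the higher and 259 (43.1%) of the lower probe sets. Of the 966 higher ones, 883 (91.4%) were lowest at T1 and 789 (81.7%) highest at T4, and the median steps were 1.00 from T1 to T2, 0.72 from T2 to T3 and 0.36 from T3 to T4 on the log2 scale. Of the 601 lower ones, 559 (93.0%) were highest at T1 and 424 (70.5%) lowest at T4, with median steps of -0.94, -0.71 and -0.31. The step from T1 to T2 was the largest of the 3 for 582 (60.2%) of the higher and 300 (49.9%) of the lower probe sets. A cleaner break was seen in a smaller set. The stage gap, the distance on the log2 scale between the nearer stage means of the 2 sides, was at least 1 for 177 (18.3%) of the higher and 124 (20.6%) of the lower probe sets. No other tested probe set had such a gap, so these were 1.27% and 0.89% of all tested. By its definition a gap of at least 1 brings a pooled difference of at least 1. All 6 later arrays lay above all 6 earlier ones for 494 (51.1%) of the called higher probe sets, against 688 (4.93%) of all tested, and all 6 lay below for 308 (51.2%) of the called lower ones, against 506 (3.62%) of all tested. Calls and overlap rest on the same arrays, so the larger shares among called probe sets follow in part from their choice. Called pairwise in all 4 pairings of a later with an earlier stage were 73 of the higher (7.6%) and 78 of the lower (13.0%) probe sets.

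**Figure D2:**
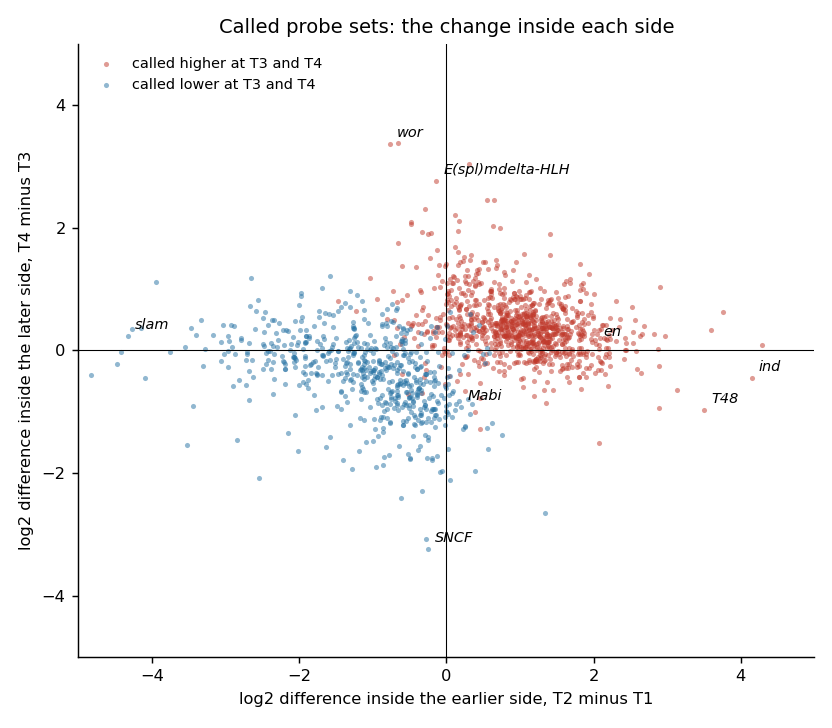
Each point is 1 of the 966 probe sets called higher or the 601 called lower, with its log2 difference T2 minus T1 on the x axis and T4 minus T3 on the y axis (red for higher, blue for lower). Most red points lie right of 0 and most blue points left of it, while wor and SNCF lie far from 0 on the y axis and near 0 on the x axis. The step from T2 to T3 is on neither axis.

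With T1 left out, T3 and T4 against T2 alone gave 387 higher (2.77%) and 267 lower (1.91%), of which 335 and 229 were among the calls of the pooled comparison. This contrast was chosen after the data were seen. It is given below for the described genes whose call it ends and for some of those that kept their call. In a further fit, with the stage as a random block, the calls of 22 genes described in the paragraphs below ended: ind, T48, wor, nullo, ftz-f1, crb, kni, opa, pnr, bap, cta, eya, Him, sty, Tl, ase, H, twe, smg, ovo, LanA and elav. The calls of ken, Mdr49, EcR, plu, mew, pum and Blimp-1, named in the closing sections, ended too. The limma adjusted p-values of all these genes in that fit were 0.056 to 0.49.

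Genes of the furrow and of the cellularising blastoderm had the lowest median difference of the lists described here. Of 8 measured genes of the furrow or of other parts of the blastoderm that are first transcribed there, 7 were called lower (against 4.3% of all probe sets). Their median difference was -2.55, against 0.08 over all probe sets. These genes were listed with earlier results of these data known, so that their direction is no independent evidence. The 7 blastoderm markers summed above are among these 8 genes, so the 2 counts are not separate results. Shares of called members in this and the following lists stand against 6.92% higher and 4.3% lower over all probe sets. Counts of members called against T2 alone stand against 2.77% higher and 1.91% lower.

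Z600, also known as frühstart, an inhibitor of mitosis in the blastoderm, showed the largest fall. Its signal was 32.6, 110 and 176 (lowest, median and highest of 6 arrays) at T3 and T4, against 1430, 3927 and 7256 at T1 and T2. The ranges do not come near each other, and the difference was -4.99 ± 0.17 (SE; limma adjusted p = 1e-09). For slam, whose protein organises the growing tip of the furrow, the signals were 60.7, 104 and 126 at T3 and T4, against 370, 4182 and 9538 at T1 and T2 (difference -4.19 ± 0.17, limma adjusted p = 2.7e-09). The wide range of slam on the earlier side is the step between its stages: its mean was 8764 ± 872 at T1 and 436 ± 95.9 at T2 (SD, n = 3 each), a change of -4.32 inside cellularisation. Even so, slam fell against T2 alone, by 2.03 (limma adjusted p = 7.2e-05).

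Sry-alpha, an actin-associated furrow protein, had signals of 148, 293 and 464 at T3 and T4, against 2028, 3417 and 5361 at T1 and T2 (difference -3.56 ± 0.13, limma adjusted p = 1.6e-09). The blastoderm gene term kept its level through cellularisation and then dropped in stages. Its means were 6982 ± 824 at T1, 5736 ± 436 at T2, 2113 ± 23.7 at T3 and 244 ± 35.4 at T4 (SD, n = 3 each), and the difference was -3.12 ± 0.12 (limma adjusted p = 2.3e-09). A second, dim probe set of term, with mean signals of 5.3 and 10.8, was not called (difference -0.31). Both halo, which directs the transport of lipid droplets, and nullo, a stabiliser of the furrow's junctions, were called lower in the pooled comparison and not against T2 alone. For halo the difference was -1.98 pooled and -0.55 against T2 alone (limma adjusted p = 0.054). For nullo the signals were 10.6, 35.1 and 57.5 at T3 and T4, against 12.1, 198 and 500 at T1 and T2, with all 3 T2 arrays at the dim end. The difference of nullo was -1.34 pooled and 0.87, in the other direction, against T2 alone (limma adjusted p = 0.24). The 1 member not called was kuk, which codes for a nuclear lamina protein that elongates the nuclei. Its signals were 2714, 3319 and 3853 at T3 and T4, against 3645, 4123 and 4350 at T1 and T2 (difference -0.32 ± 0.11, limma adjusted p = 0.062).

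**Figure D3:**
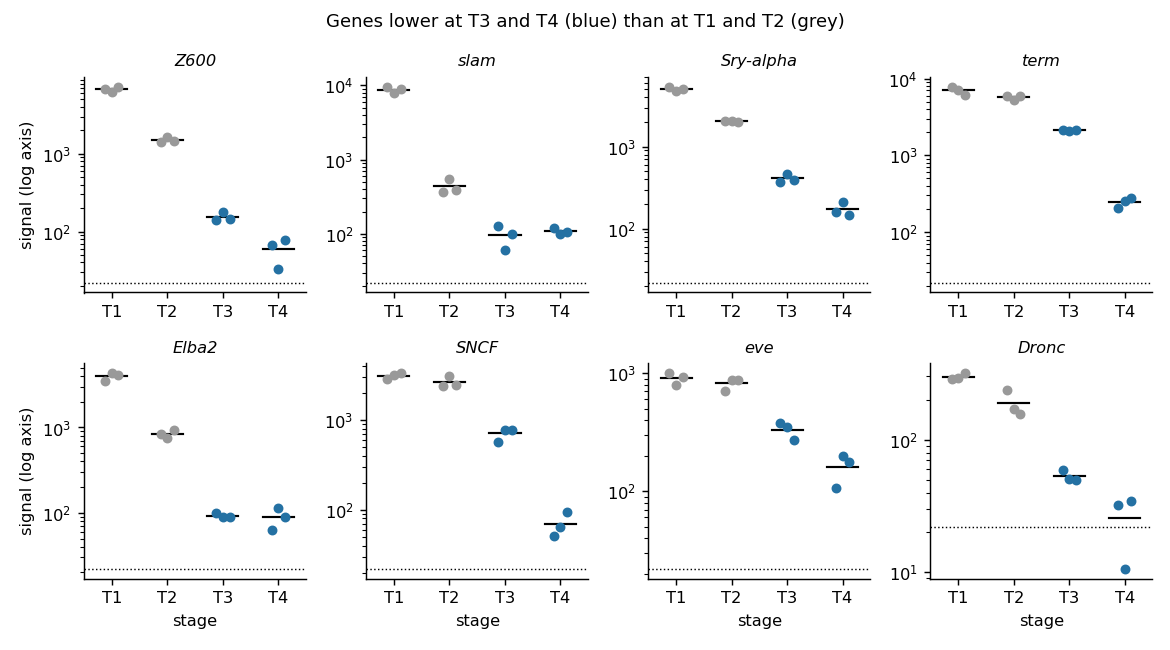
Signal of 8 genes called lower, on log axes, by stage: each point is 1 array, blue at T3 and T4 and grey at T1 and T2, short lines are means of 3 arrays, and the dotted line, where it falls within a panel, is the negative-control level of 21.96. Z600, slam and Elba2 drop at T2 and again at T3, while term, SNCF and eve keep most of their signal at T2.

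Among genes of the general furrow machinery and of polarity, the share of calls was near that of all probe sets. Only 2 of the 16 measured had their highest mean of the series at T0, and neither called gene was among them. Of 16 measured genes of the actomyosin, septin and trafficking parts of the furrow and of polarity, 1 was called higher and 1 lower (6.2% each way), with a median of 0.14. The one called higher was lva, a Golgi protein needed for furrow growth, with signals of 164, 247 and 326 at T3 and T4 against 67.1, 107 and 165 at T1 and T2 (difference 1.17 ± 0.16, limma adjusted p = 8.2e-05). Its difference against T2 alone was 0.84, under the threshold of size. The one called lower was crb, an apical determinant of epithelia, with means of 267 ± 72.2 at T1, 395 ± 123 at T2, 222 ± 63.0 at T3 and 88.6 ± 25.9 at T4. The difference of crb was -1.16 ± 0.21 (limma adjusted p = 0.001), and -0.53 with T4 left out, which is not a call. Among 21 measured junction and polarity genes, which share several members with that list, 2 were called in each direction (9.5% each), with a median of -0.05. Neither alpha-Cat nor pyd was called (0.37 and -0.25).

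Several RNAs of embryonic chromatin factors fell. Of 13 measured members 4 were called lower (30.8%, against 4.3% of all probe sets), and these were BigH1, the linker histone of the early embryo, and Elba2, Elba3 and insv, which code for proteins of an early boundary element complex and a relative of it. Elba2 had signals of 62.1, 89.9 and 115 at T3 and T4, against 750, 2209 and 4324 at T1 and T2 (difference -4.24 ± 0.17, limma adjusted p = 2.4e-09). Elba3 was at 1.2, 2.75 and 20.3 at T3 and T4, under the negative-control level on all 6 arrays, against 62.3, 685 and 1756 at T1 and T2, so that it was at least 15.2-fold lower (limma adjusted p = 2.2e-08). BigH1 had 1.4, 9.45 and 24.3 against 42.3, 161 and 210 (difference -2.81 ± 0.25, limma adjusted p = 2.4e-06). For insv the signals were 588, 865 and 1234 at T3 and T4, against 1755, 2484 and 2947 at T1 and T2. All 4 genes had ranges without overlap, which for Elba2 and Elba3 was a condition of their choice. All 4 were also called against T2 alone, with differences between -1.36 and -3.13. D1, an AT-hook protein of satellite DNA, was not called (0.37, limma adjusted p = 0.17).

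Among the genes with the widest fall were several outside any list. SNCF had signals of 50.9, 332 and 775 at T3 and T4, against 2357, 2924 and 3295 at T1 and T2 (difference -3.62 ± 0.22, limma adjusted p = 1e-07). Its change was concentrated in the later side, with -3.24 between T4 and T3 and -0.25 between T2 and T1. For bard the signals were 33.6, 86.9 and 177 against 621, 1356 and 2404 (difference -3.82 ± 0.15). The poly(A) polymerase gene hrg had 128, 160 and 196 at T3 and T4, against 677, 1593 and 2518 at T1 and T2 (difference -3.08 ± 0.13), and Mabi had 10.7, 51.1 and 84.6 against 276, 343 and 352. Mabi held its level through cellularisation, with 305 ± 32.5 at T1 and 348 ± 3.94 at T2, and had 67.4 ± 16.6 at T3 (SD, n = 3 each). The nuclear receptor gene ftz-f1, which does belong to lists (pair-rule genes and ecdysone nuclear receptors), had reached its low level by T2. The means of ftz-f1 were 178 ± 33.9 at T1, 3.1 ± 1.83 at T2, 1.67 ± 0.85 at T3 and 4.87 ± 5.20 at T4, and its difference against T2 alone was -0.02.

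Pair-rule genes, most of them expressed in stripes over alternate segments, mostly fell. Of 8 measured members 5 were called lower (62.5%, against 4.3% of all probe sets) and 1 higher (12.5%, against 6.92%), with a median of -1.31. The 5 include the nuclear receptor gene ftz-f1, described above, which had -0.02 against T2 alone. The homeobox gene eve had signals of 106, 234 and 377 at T3 and T4, against 710, 873 and 1000 at T1 and T2 (difference -1.89 ± 0.18, limma adjusted p = 4.7e-06). Its stage means were 907 ± 104 at T1, 818 ± 93.9 at T2, 333 ± 55.8 at T3 and 160 ± 47.9 at T4, so that the fall came after cellularisation. For ftz, another homeobox pair-rule gene, the signals were 161, 433 and 720 against 925, 1189 and 1447 (difference -1.69 ± 0.21, limma adjusted p = 3.7e-05), and most of its change lay between T3, 702 ± 27.2, and T4, 174 ± 19.9. With T4 left out the call of ftz ended (difference -0.70). The repressor gene hry fell by 1.61 (limma adjusted p = 0.00015), with signals of 80.8, 120 and 255 against 240, 394 and 757 that overlap slightly. The call of opa, a zinc-finger pair-rule gene, ended without any of 7 single arrays (replicates 2 or 3 of T1, 3 of T2, 1 or 2 of T3, and 2 or 3 of T4), with a difference of -0.85 without replicate 1 of T3. The exception in direction was slp2, a forkhead gene, with 37.6, 63.9 and 105 at T3 and T4 against 9.9 to 37.5 at T1 and T2 (difference 1.32 ± 0.26, limma adjusted p = 0.002). odd was not called (-0.51).

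Gap genes act before the pair-rule genes. Of 13 measured gap and head gap genes 2 were called lower (15.4%) and 1, slp2, higher (7.7%), with a median of -0.33, and T2 against T1 gave 3 lower. The terminal gap gene tll had signals of 30.0, 46.9 and 61.9 at T3 and T4, against 65.1, 243 and 426 at T1 and T2 (difference -1.75 ± 0.21, limma adjusted p = 2.8e-05). Its mean was 411 ± 13.8 at T1 and 74.6 ± 11.6 at T2, and its difference against T2 alone was -0.57 (limma adjusted p = 0.21). The other call, kni, lay at the threshold (-1.01) and ended without any of 5 single arrays (replicates 3 or 4 of T2, 2 or 3 of T3, and 3 of T4), at -0.92 without replicate 3 of T4, and against T2 alone (-0.32). hb, an anterior gap gene also supplied by the mother, had a difference of -0.99, just under the threshold of size.

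In the dorsal ectoderm and amnioserosa, genes moved both ways. Of 17 measured members 4 were called lower and 4 higher (23.5% each, against 4.3% and 6.92% of all probe sets). The lower ones were zen, the homeobox gene of the amnioserosa, tld and tsg, which raise BMP signalling, and egr, the fly's TNF. zen had signals of 17.7, 93.9 and 153 at T3 and T4, against 227, 464 and 805 at T1 and T2 (difference -2.44 ± 0.23, limma adjusted p = 3.6e-06). egr had 108, 151 and 169 against 290, 329 and 424 (difference -1.20 ± 0.16), and its means of 334 ± 16.0 at T1 and 344 ± 70.0 at T2 show a level held through cellularisation. The call of tsg ended against T2 alone (-1.08, limma adjusted p = 0.056). The higher ones were ush, peb, pnr and Ance, a set of GATA cofactor, zinc-finger, GATA factor and peptidase genes of the dorsal side and amnioserosa. ush had signals of 164, 240 and 300 at T3 and T4, against 4.3, 64.4 and 119 at T1 and T2 (difference 2.30 ± 0.24, limma adjusted p = 1.1e-05). Ance had 114, 196 and 263 against 16.3, 50.1 and 89.7 (difference 1.84 ± 0.21), and was the 1 of these 4 also called against T2 alone (1.18, limma adjusted p = 0.01), where ush had 1.01, peb 0.86 and pnr 0.38.

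Some RNAs supplied by the mother fell. Of 21 measured egg transcripts and maternal activators 5 were called lower (23.8%), with a median of -0.44, and the 5 calls ended against T2 alone. smg, whose protein marks maternal RNAs for destruction, had signals of 48.7, 59.3 and 79.0 at T3 and T4, against 58.2, 417 and 814 at T1 and T2 (difference -1.87 ± 0.17, limma adjusted p = 3.6e-06). Its mean was 760 ± 46.8 at T1 and 74.6 ± 28.1 at T2, and its difference against T2 alone was -0.23. twe, a Cdc25 phosphatase gene, was under the negative-control level on all 6 later arrays and at least 2.97-fold lower there (limma adjusted p = 0.0001), with -0.72 against T2 alone. Of 11 measured germ plasm and pole cell genes 2 were called lower (18.2%) and 1, ovo, higher. aub, a Piwi family gene, had 68.0, 88.4 and 123 at T3 and T4 against 173, 219 and 278 at T1 and T2 (difference -1.18 ± 0.13, limma adjusted p = 1.2e-05). Its difference was -0.91 both against T2 alone and with T4 left out, under the threshold of size. pgc, which represses transcription in pole cells, kept a mean of 65.2 ± 10.7 at T3 and had 13.7 ± 2.25 at T4, and its call held against T2 alone (-1.30) and ended with T4 left out (-0.51). The summed signal of the 3 measured pole cell markers was 119 to 179 on the later arrays and 140 to 344 on the earlier ones, and its part in these results was not tested. The call of ovo, a germ-line and epidermal transcription factor gene, ended without any of 5 single arrays (replicates 1 or 2 of T1, 4 of T2, 2 of T3 and 2 of T4), at 0.87 without replicate 2 of T4, and against T2 alone (0.56).

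Of 8 measured genes of glycolysis 3 were called lower (37.5%, against 4.3% of all probe sets) and 1 higher (12.5%, against 6.92%), with a median of -0.59. Pglym78, a phosphoglycerate mutase gene, had signals of 34.4, 139 and 180 at T3 and T4, against 230, 430 and 562 at T1 and T2 (difference -1.78 ± 0.24, limma adjusted p = 9.4e-05). Gapdh1 had 63.0, 114 and 131 against 144, 249 and 400 (difference -1.16 ± 0.17), and its call ended against T2 alone (-0.70) and with T4 left out (-0.98). The call of Eno, the enolase gene, ended without replicate 1 of T1 (difference -0.98), against T2 alone (-0.65) and with T4 left out (-0.93). Pgi, at the entry of the pathway, was higher, with 152, 226 and 303 at T3 and T4 against 46.3, 94.5 and 191 at T1 and T2 (difference 1.24 ± 0.17), and it was not called against T2 alone (0.59). T0 held the highest mean of the series for 7 of the 8 measured genes, among them the 3 lower genes and Pgi. Of 6 measured cell death genes 1 was called, in the lower direction (16.7%, against 4.3% of all probe sets). This was Dronc, the initiator caspase, with 10.6, 42.2 and 58.8 against 157, 261 and 317 (difference -2.49 ± 0.20, limma adjusted p = 9.1e-07), and it fell against T2 alone by 2.16.

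**Figure D4:**
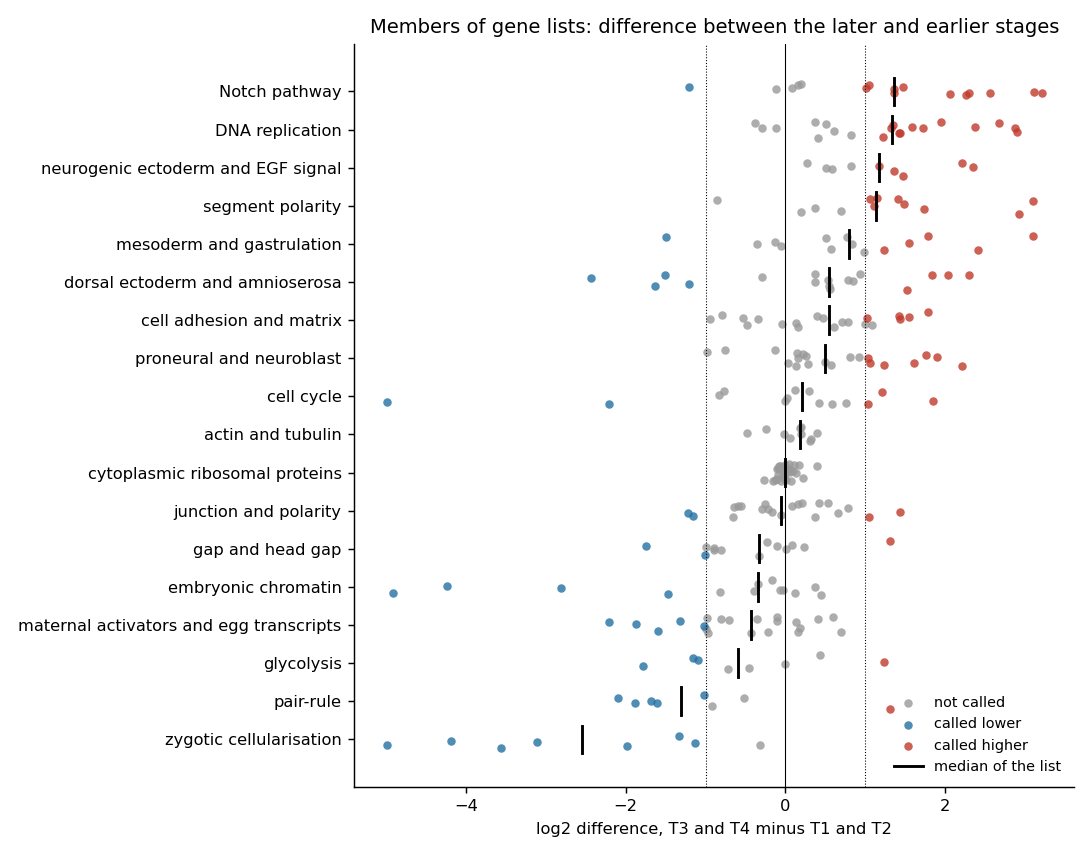
Log2 difference (T3 and T4 minus T1 and T2) of every measured member of 18 gene lists, 1 point per gene, blue if called lower, red if called higher and grey if not called, with the list's median as a black bar and dotted lines at the threshold of 1 in size. The zygotic cellularisation genes reach -4.99 at the bottom, and the Notch pathway, DNA replication, neurogenic and segment polarity lists have medians between 1.13 and 1.36 at the top.

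Segment polarity genes, which hold the segment borders after the pair-rule stripes fade, mostly rose. Of 12 measured members 8 were called higher (66.7%, against 6.92% of all probe sets), with a median of 1.13. en, the homeobox gene of posterior compartments, had signals of 248, 281 and 339 at T3 and T4, against 3.2, 33.9 and 115 at T1 and T2 (difference 2.93 ± 0.25, limma adjusted p = 1.9e-06). All 6 later arrays lay above all 6 earlier ones, a condition for the 12 largest rises, to which en belongs. Against T2 alone en rose by 1.92 (limma adjusted p = 0.0017). gsb, a Pax family gene, had 298, 431 and 553 against 4.9, 72.1 and 224 (difference 3.10 ± 0.16, limma adjusted p = 2.2e-08). Its means were 6.23 ± 2.06 at T1, 178 ± 44.5 at T2, 334 ± 35.6 at T3 and 520 ± 31.0 at T4, so that the largest step, 3.76, lay inside cellularisation. hh, the secreted signal made by en-expressing cells, had 60.5, 74.9 and 99.3 at T3 and T4 against 2.7, 23.3 and 54.1 at T1 and T2 (difference 1.74 ± 0.18, limma adjusted p = 1e-05). Against T2 alone hh had 0.75 (limma adjusted p = 0.054), and 2 members of the list, gsb among them at 1.22, were called higher. Of 6 measured Hox genes and cofactors 2 were called higher (33.3%), the trunk gene tsh (2.01 ± 0.22) and Antp (1.47 ± 0.21), both of them with the largest step between T1 and T2. Against T2 alone neither call held, at 0.56 for tsh and 0.75 for Antp. A second probe set of Antp was not called (0.40).

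The Notch pathway list, which is mostly the Enhancer of split and Bearded family targets of Notch, had the highest median of the lists described here, 1.36. Of 16 measured members 11 were called higher (68.8%) and 1 lower, and 7 remained called higher against T2 alone. E(spl)mdelta-HLH, a repressor of the bHLH class, had 33.1, 143 and 324 at T3 and T4, against 0.8, 4.25 and 13.4 at T1 and T2. It was under the negative-control level on all 6 earlier arrays and at least 4.74-fold higher on the later ones (limma adjusted p = 1.7e-06), and it changed inside the later side too, with means of 37.2 ± 4.21 at T3 and 296 ± 44.5 at T4. E(spl)malpha-BFM, of the Bearded family, had 390, 677 and 1290 against 13.5, 111 and 251 (difference 3.12 ± 0.29, limma adjusted p = 3.8e-06). For E(spl)m7-HLH the signals were 694, 1207 and 1765 against 110, 251 and 420, and its means were higher at each later stage, at 127 ± 16.0 at T1, 399 ± 32.4 at T2, 768 ± 102 at T3 and 1623 ± 125 at T4. E(spl)m5-HLH and E(spl)m2-BFM had differences of 2.57 ± 0.18 and 2.31 ± 0.23. The member called lower was H, a repressor of Notch targets, whose call ended without replicate 1 of T3 (-0.99) and against T2 alone (0.26), and whose second probe set differed by 0.68 in the other direction.

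Proneural and neuroblast genes rose in part. Of 21 measured members 7 were called higher (33.3%), with a median of 0.50, and 4 were called higher against T2 alone. l(1)sc, the proneural gene most widely used in early neuroblasts, had signals of 199, 394 and 560 at T3 and T4, against 27.9, 77.7 and 151 at T1 and T2 (difference 2.21 ± 0.15, limma adjusted p = 2.6e-07). ac, of the same complex, had 27.4, 34.9 and 42.1 at T3 and T4 against 1.1 to 12 at T1 and T2, so that it was at least 1.56-fold higher (limma adjusted p = 2.7e-05). esg, a Snail family gene, had 416, 471 and 580 against 57.9, 124 and 246 (difference 1.91 ± 0.17), with its largest step from T2 to T3. wor, another Snail family gene of neuroblasts, was a T4 gene: its means were 18.9 ± 11.1 at T1, 7.17 ± 1.61 at T2, 11.3 ± 6.02 at T3 and 178 ± 8.94 at T4. Its call (1.61 ± 0.22, limma adjusted p = 9.4e-05) therefore ended with T4 left out (-0.07). The call of ase, a bHLH gene of neuroblasts, ended without any of 8 of the 12 arrays (all but replicates 3 of T1, 4 of T2, 3 of T3 and 2 of T4), among them replicate 2 of T3 at 1.12, and against T2 alone (0.98).

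In the neurogenic ectoderm and its EGF signalling, 5 of 9 measured members were called higher (55.6%), with a median of 1.18. ind, which specifies the middle column of the nerve cord, had 223, 301 and 404 at T3 and T4 against 5.4, 125 and 247 at T1 and T2 (difference 2.35 ± 0.12, limma adjusted p = 2.7e-08). Its means of 7.0 ± 1.65 at T1 and 245 ± 3.79 at T2 put almost the whole rise inside cellularisation, and against T2 alone the difference was 0.28 (limma adjusted p = 0.31). Dr, the gene of the lateral column, had 80.7, 94.9 and 130 against 2.0, 21.1 and 44.2 (difference 2.21 ± 0.15), and was called against T2 alone at 1.13. The EGF ligand gene spi had 1116, 1527 and 2468 against 326, 631 and 1104 (difference 1.37 ± 0.16, limma adjusted p = 2.5e-05), and the inhibitor gene sty had a difference of 1.47 ± 0.28. Both calls ended against T2 alone, at 0.61 for spi and 0.54 for sty. The receptor gene Egfr was not called (0.51). At the ventral midline 2 of 7 measured genes were called higher (28.6%, against 6.92% of all probe sets). The 1 called lower (14.3%, against 4.3%) was Tl, at -0.49 and not called against T2 alone. Among the higher ones comm, which sorts the axon guidance receptor Robo, had 239, 431 and 552 against 51.4, 141 and 193 (difference 1.64 ± 0.23, limma adjusted p = 0.00012). edl, an antagonist of Ets factors under EGF control, was among the 12 largest rises, with 687, 808 and 925 against 30.0, 87.4 and 328 (difference 3.02 ± 0.20, limma adjusted p = 1.9e-07).

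Of 14 measured mesoderm and gastrulation genes 5 were called higher (35.7%) and 1 lower (7.1%), with a median of 0.80. The 2 genes that specify the mesoderm were not called: sna differed by -0.12 (limma adjusted p = 0.75) and twi by -0.36 (limma adjusted p = 0.25). sna had signals of 1056, 1295 and 1768 at T3 and T4, against 1330, 1375 and 1656 at T1 and T2. zfh1, a zinc-finger homeobox gene of the mesoderm, had 447, 636 and 728 at T3 and T4, against 12.7, 89.4 and 185 at T1 and T2 (difference 3.11 ± 0.17, limma adjusted p = 3.2e-08). Mes2 had 139, 169 and 195 against 4.3, 33.5 and 75.3 (difference 2.42 ± 0.14). T48, which recruits actomyosin regulators in invaginating cells, had means of 6.3 ± 2.26 at T1, 146 ± 14.3 at T2, 180 ± 23.0 at T3 and 91.2 ± 31.5 at T4. Its pooled difference was 1.54 ± 0.17 and its difference against T2 alone -0.21, and its mean at T2 lay between those of T3 and T4. bap, a gene of the visceral mesoderm, had 231 ± 19.9 at T4 and 86.3 ± 28.7 at T3, against 57.2 ± 7.92 at T1 and 57.3 ± 27.1 at T2, and its call ended with T4 left out. The member called lower, cta, a G protein gene of the gastrulation pathway, had its change between T1 and T2, with -0.05 against T2 alone. Of 16 measured muscle and heart precursor genes 4 were called higher (25.0%), the largest of them eya at 1.79 ± 0.32. The call of eya ended against T2 alone (1.26, limma adjusted p = 0.065) and with T4 left out (1.00, limma adjusted p = 0.12). The call of Him, a repressor of muscle differentiation, ended without any of 4 single arrays (replicates 1 or 3 of T2, 2 of T3 and 1 of T4), at 0.86 without replicate 2 of T3, and against T2 alone (0.92).

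**Figure D5:**
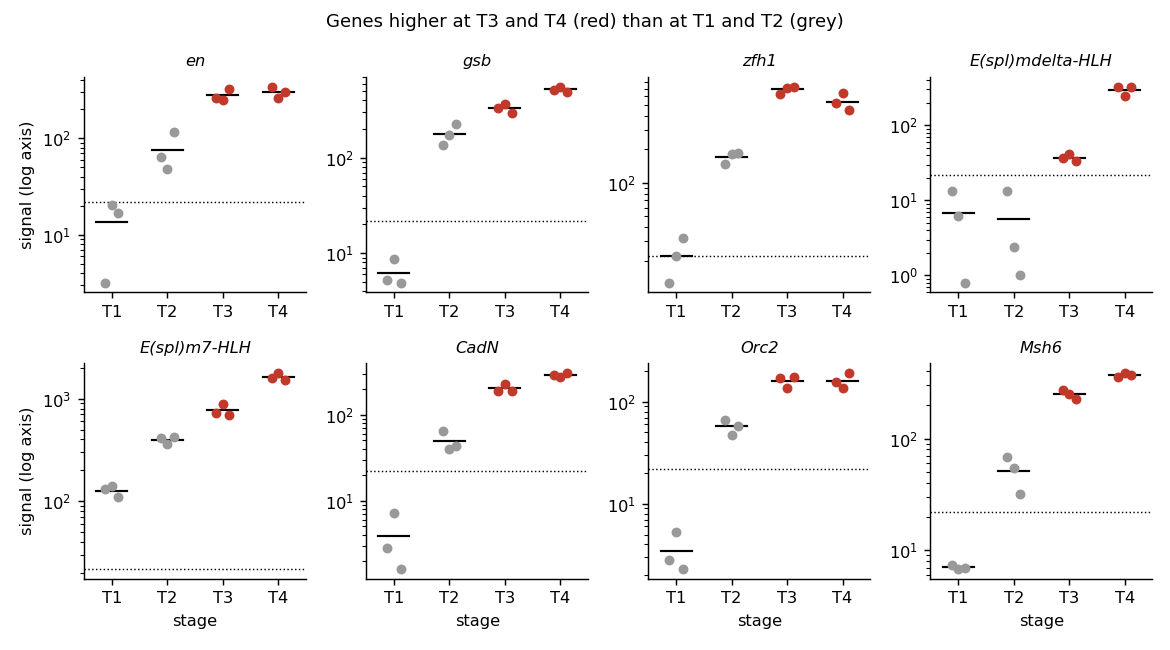
Signal of 8 genes called higher, on log axes, by stage: each point is 1 array, red at T3 and T4 and grey at T1 and T2, short lines are means of 3 arrays, and the dotted line is the negative-control level of 21.96. In every panel all 6 red points lie above all 6 grey ones, which for all but E(spl)m7-HLH and Orc2 was a condition of their choice. In all but E(spl)mdelta-HLH the T2 points lie between those of T1 and of T3.

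Most DNA replication genes rose. Of 20 measured members 12 were called higher (60.0%, against 6.92% of all probe sets), with a median of 1.33, and 9 were called higher against T2 alone. The called genes include subunits of the origin recognition complex, of the Mcm helicase and of the polymerases. Orc2 had signals of 135, 164 and 190 at T3 and T4, against 2.3, 26.2 and 66.9 at T1 and T2 (difference 2.67 ± 0.14, limma adjusted p = 3.1e-08). Orc4 had 57.8, 103 and 179 against 1.1, 5.0 and 46.9 (difference 2.87 ± 0.28, limma adjusted p = 6e-06). Prim2, the large primase subunit, had 246, 359 and 563 against 6.6, 74.2 and 188 (difference 2.90 ± 0.17), and PolE1, of DNA polymerase epsilon, had 127, 170 and 264 against 11.7, 35.1 and 51.1 (difference 2.38 ± 0.16). The ranges of these 4 genes do not overlap, which for Orc4 and Prim2 was a condition of their choice. Each of the 4 rose against T2 alone, by 1.11 to 2.24. PCNA and Cdc6 were not called (0.51 and -0.38), and both were bright on all 12 arrays. Msh6, a mismatch repair gene, showed the largest rise of any named gene, with 228, 315 and 386 at T3 and T4 against 6.8, 19.7 and 68.6 at T1 and T2 (difference 3.45 ± 0.16, limma adjusted p = 5.3e-09).

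Several of these genes had been abundant at T0, before cellularisation. Msh6 had a mean of 442 at T0, 7.07 at T1, 51.8 at T2, 250 at T3 and 373 at T4. Prim2 had 436 at T0 and 7.1 at T1, and Orc4 had 255 and 2.67. Of the 12 replication genes called higher, 5 had their highest mean of all 5 stages at T0, and 17 of the 20 measured were lowest of the 4 compared stages at T1. Beyond this list, 358 (37.1%) of the called higher probe sets had their highest mean at T0, against 22.2% of all tested. Among the called lower ones the number was 142 (23.6%), near the share of all tested. At the other end, all 3 T0 arrays were at or below the negative-control level for 24.6% of the called higher and 7.0% of the called lower probe sets, against 38.8% of all tested.

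Of 14 measured cell cycle genes 3 were called higher (21.4%) and 2 lower (14.3%), with a median of 0.21. The lower ones were Z600 and twe, described above, both regulators of entry into mitosis. Rca1, an inhibitor of the anaphase-promoting complex, had signals of 118, 239 and 348 at T3 and T4, against 33.1, 62.7 and 93.0 at T1 and T2 (difference 1.85 ± 0.15, limma adjusted p = 1.5e-06). fzr, an activator of that complex, had 141, 215 and 256 against 36.8, 88.9 and 158 (difference 1.21 ± 0.18), which overlap, and 0.60 against T2 alone. CycB was not called (0.29). Of 11 measured kinesin and spindle genes 1 was called higher (9.1%, near the 6.92% of all probe sets) and none lower. This was nod, a kinesin-like gene of chromosome segregation (1.69 ± 0.21, limma adjusted p = 3.7e-05).

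Among the largest rises was an adhesion protein gene. CadN, the neural cadherin, had 189, 250 and 303 at T3 and T4, against 1.6, 23.6 and 64.9 at T1 and T2 (difference 3.33 ± 0.18, limma adjusted p = 2.9e-08), and it rose against T2 alone by 2.16. bbg, a PDZ domain gene, had 131, 187 and 238 against 3.2, 12.2 and 60.8 (difference 3.04 ± 0.21), although its second probe set, with mean signals of 10.9 and 12.7, was not called (-0.14). Of 20 measured genes of cell adhesion and matrix 5 were called higher (25.0%), with a median of 0.54. LanB1 and LanB2, 2 laminin chains of the basement membrane, had differences of 1.43 ± 0.25 and 1.55 ± 0.20, while the third chain, LanA, had a mean of 102 ± 25.1 at T4 and 21.7 ± 7.07 at T3, and its call ended with T4 left out. ImpL2, which binds insulin-like peptides, had 855, 1239 and 1627 against 51.2, 146 and 504 (difference 2.93 ± 0.23, limma adjusted p = 7.2e-07). Of 15 measured solute transporter genes 2 were called higher (13.3%, against 6.92% of all probe sets) and 1 lower (6.7%, against 4.3%). Oatp58Dc, an organic anion transporter gene, had 40.5, 124 and 313 at T3 and T4 against 4.4, 6.4 and 48.5 at T1 and T2 (difference 2.54 ± 0.29, limma adjusted p = 1.8e-05). Smvt, a vitamin transporter gene, was mostly a T4 gene, with means of 344 ± 28.7 at T4 and 57.2 ± 7.93 at T3, against 11.2 ± 10.5 at T1 and 19.9 ± 8.93 at T2.

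The remaining lists differed in their shares of calls. None of 31 measured cytoplasmic ribosomal protein genes and none of 10 actin and tubulin genes was called by limma, with medians of 0.00 and 0.19 and 1 gene in each at an unadjusted p under 0.05. Of 15 genes of late differentiation 1, elav, was called higher (6.7%), and its call ended without replicate 1 of T1 (0.78), replicate 2 of T3 or replicate 3 of T4, and against T2 alone (0.61). The 12 measured members of the gut and germ layer list held 2 called higher (16.7%, against 6.92% of all probe sets), Dr and drm, and 1 lower, cad. Dr is the gene of the lateral column described above and is counted in both places, which leaves drm as the gut gene called higher. drm, a zinc-finger gene of the gut, had 85.9, 128 and 255 at T3 and T4 against 4.0, 27.2 and 59.0 at T1 and T2 (difference 2.29 ± 0.26, limma adjusted p = 1.9e-05). cad, the homeobox gene of the posterior, differed by -1.50 ± 0.21 and by -0.66 against T2 alone, and its second probe set, at -0.73, was not called. In the trachea, salivary gland and haemocyte list 4 of 15 were called higher (26.7%) and 1, kni, lower (6.7%). Among the higher ones was bnl, an FGF ligand gene, with 9.8, 19.7 and 23.9 at T3 and T4 against 1.7, 2.4 and 3.7, where most later signals and all earlier ones were under the negative-control level. Called genes were spread over the main chromosome arms, with 6.7% to 8.4% of the genes of an arm called higher and 3.8% to 5.7% called lower.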

How the data were processed

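The authors deposited linear signal intensities from MAS5 for each probe set, per the submitters' processing notes, which give no version here. Across the deposited intensity tables the 2% trimmed mean of every array was 100. Replicate numbers and groups were taken from the titles. Of 13966 tested probe sets 12443 had 1 gene symbol in the platform annotation, 12394 of them brought up to date through Entrez identifiers, and a gene stands by its probe set of highest mean over 15 arrays. The 44 control probe sets were left out. For testing, the deposited intensities became log2(signal + 7.3), which understates changes of dim genes, with 7.3 taken as the middle value of the arrays' 25th percentiles. Stage means were estimated by limma 3.58.1 (statmod 1.5.0, R 4.3.3) from all 15 arrays, with a median of 13.6 degrees of freedom, and (T3 + T4) / 2 minus (T1 + T2) / 2 was tested two-sided with Benjamini-Hochberg adjustment over all tested probe sets. The number of arrays limits the precision. Where all 6 arrays of a side lay at or below the negative-control level, a bound ("at least") is given: the other side's geometric mean over that level. Named genes were the 12 largest changes per direction without overlap of the sides, the 8 widest stage gaps, up to 5 called and 2 uncalled members of each list per direction, and the called genes with the largest steps inside a side, CG and CR numbers aside. Gene lists, members and rules were chosen with earlier results of these data known, and lists were described without a set test. On simulated data with the same 13966 probe sets, of 50 changed probe sets per size the later-minus-earlier fit called 36% at a log2 difference of 1, 66% at 1.5, 98% at 2 and 98% at 3, with 5 unchanged ones called. Replicate numbers were not taken as pairs. Promoter sequences were not analysed here.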

Additional observations from a re-analysis of the deposited data

How the results depend on the processing

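The counts of called probe sets in the pooled comparison moved by over 1.5 times under 4 kinds of setting. Leaving stages out of the contrast, which was chosen after the data were seen, gave 387 higher and 267 lower without T1 and 1539 and 981 without T2, while leaving out T3 or T4 kept all counts within 1.5 times. A pseudocount at the median signal gave 454 and 368, the stage as a random block 636 and 394, and centring on the array median 635 higher. In the stage pairs the median-signal pseudocount gave 781 higher for T3 against T1, 69 lower for T3 against T2, 1108 higher for T4 against T1, 391 higher and 290 lower for T4 against T2, and 346 higher for T2 against T1. A pseudocount of 1 gave 55 higher and 68 lower for T3 against T2 and 43 higher for T4 against T3. Centring on the median gave 1056 higher and 1788 lower for T4 against T1, 421 higher for T2 against T1, and 47 higher and 120 lower for T4 against T3. Centring on ribosomal proteins gave 55 lower for T3 against T2 and 487 higher for T2 against T1. Centring on hybridisation controls gave 17 higher and 65 lower for T3 against T2, 361 higher for T4 against T2, 376 lower for T2 against T1, and 29 higher and 14 lower for T4 against T3. The causes were not tested. Same-numbered arrays of different stages had deviations that correlated at -0.042 to 0.075 (15 pairs, none over 0.1; median 0.035, against -0.011 for different numbers), while 8 of 12 arrays correlated best with their own number, a hint from the data and not from the design. The replicate block gave 949 higher and 588 lower pooled and 47 and 65 for T3 against T2.

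Leaving out 1 array at a time gave 932 to 991 higher and 584 to 605 lower pooled, 1181 to 1306 and 831 to 904 for T3 against T1, 1588 to 1753 and 1008 to 1059 for T4 against T1, 563 to 675 and 419 to 476 for T4 against T2, and 639 to 769 and 503 to 610 for T2 against T1. For T3 against T2 the counts were 47 to 102 higher and 71 to 124 lower, with 56 higher and 71 lower without replicate 1 of T3 and 47 higher without replicate 2 of T3. For T4 against T3 they were 40 to 89 and 43 to 80, with 40 higher and 50 lower without replicate 3 of T3 and 43 lower without replicate 2 of T3.

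Among list members counted as called, single arrays also ended the calls of kune (0.97 without replicate 3 of T1 or 1 of T4, 0.98 without replicate 1 of T2 or 3 of T3), plu (at the weakest -0.82, without replicate 3 of T4, and without replicates 2 or 3 of T1 or 3 of T3), mei-41 (0.96 without replicate 3 of T4, and without replicate 2 of T1 or 1 of T4) and mew (0.88 without replicate 2 of T1, and without replicate 2 of T3 or 1 or 3 of T4).

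Over 150 followed genes and 29 settings, 3988 of 4342 differences kept direction and side of the threshold, 346 lost the call and 8 turned. Without T1 these were T48 (-0.21), nullo (0.87), pum (0.66) and H (0.26), without T4 wor (-0.07), Blimp-1 (0.25) and twi (0.02), and without T3 sna (0.03). Intensity trend, array weights, quantile normalization, the filter on dim probe sets and the fit without T0 kept both pooled counts within 1.5 times. Between 39.0% and 49.7% of the signals of the compared arrays lay at or below the negative-control level, where differences are bounds or small.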

Other observations

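Some genes stood out from the steady course of most calls. Of 966 probe sets called higher, 1 was called lower at T4 than at T3, and it was not that of Ctr1B. Ctr1B, a copper transporter gene, peaked at T3, with means of 25.6 ± 11.8 at T1, 38.8 ± 18.8 at T2, 153 ± 36.0 at T3 and 58.6 ± 13.0 at T4 (SD, n = 3 each). ken, a zinc-finger repressor gene, had 21.7 ± 3.01, 117 ± 30.5, 209 ± 28.2 and 70.5 ± 21.3 over the same stages, and its pooled difference of 1.11 became 0.07 against T2 alone. On the falling side, Mdr49, an ABC transporter gene, was highest at T2, with 520 ± 86.1, 777 ± 149, 499 ± 123 and 157 ± 32.5.

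CtsK1, a cathepsin gene, was the one of the 12 leading falls with its highest mean of the series at T0, where it had 2953, and it had signals of 19.2, 37.0 and 52.4 at T3 and T4 against 101, 532 and 995 at T1 and T2 (difference -3.15 ± 0.21, limma adjusted p = 1.9e-07). In the list of nuclear receptors of the ecdysone cascade, 2 of 11 were called lower (18.2%, against 4.3% of all probe sets). These were EcR and ftz-f1, with differences against T2 alone of -0.23 and -0.02, and a second probe set of EcR (-1.04) was not called. Among the genes called, 224 of the higher and 161 of the lower are known by a CG or CR number only and are not described.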
